A study of Rattus norvegicus with 6 samples.

Results

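A set of 5 inflammatory genes was read out of the deposited rat count table by Ensembl gene ID, namely Il1b (ENSRNOG00000004649), Il6 (ENSRNOG00000010278), Il10 (ENSRNOG00000004647), Ccl2 (ENSRNOG00000007159) and Cxcl1 (ENSRNOG00000002802). All 5 were found among the 22250 gene IDs of the table, and they were listed by name and ID as inflammatory genes, at a time when earlier results of these data were known. RNA came from the achilles tendon of Sprague-Dawley rats on day 14 after the tendon had been cut through at its midpoint and sutured. In the injury model group (n = 3) the rats carried this injury without drug treatment. In the celecoxib + lactoferrin group (n = 3) rats with the same injury received celecoxib, an inhibitor of cyclooxygenase-2, and lactoferrin, an iron-binding glycoprotein, by daily injection at the site of injury. The labels give 14 d as the age, which in the study's methods is the time since surgery, as the rats were several weeks old when operated on. No vehicle injection is described for the injury model group, and tendons without injury or with celecoxib alone were not analysed here. The comparison therefore sets both drugs together against an untreated injury.

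Interleukin-1 beta, encoded by Il1b, is made mainly by activated myeloid cells and sets off the inflammatory response to tissue damage. Interleukin-6, encoded by Il6, signals through a receptor complex with gp130 to STAT3, and in tissue it comes from fibroblasts, endothelial cells and macrophages. Interleukin-10, encoded by Il10, restrains macrophage activation, so it is an inflammatory regulator that acts against the others. Ccl2 encodes a CC chemokine that draws monocytes through the receptor CCR2, and Cxcl1 encodes a CXC chemokine that draws neutrophils through CXCR2. Transcription of Il1b, Il6, Ccl2 and Cxcl1 is known to be induced through NF-kappa B. In healing tendon this response is strongest early after injury and gives way to matrix formation.

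The promoter windows of Il1b, Il6 and Cxcl1 are shown because these are the members for which a window was matched by symbol in the RefSeq-derived sequence table (build GRCr8). Each holds 250 bases before and 50 bases from the start of the gene, all 3 genes lie on the minus strand, and the sequence reads 5′ to 3′ along the gene. Capitals mark matches on either strand to the letters GGGANNTTC (the first 9 letters of a kappa B motif), TGACGTCA (the cAMP response element) or TATAAA (a core promoter box). The windows lie at chr3:137036532-137036831 (Il1b), chr4:5894526-5894825 (Il6) and chr14:17479272-17479571 (Cxcl1).
Il1b: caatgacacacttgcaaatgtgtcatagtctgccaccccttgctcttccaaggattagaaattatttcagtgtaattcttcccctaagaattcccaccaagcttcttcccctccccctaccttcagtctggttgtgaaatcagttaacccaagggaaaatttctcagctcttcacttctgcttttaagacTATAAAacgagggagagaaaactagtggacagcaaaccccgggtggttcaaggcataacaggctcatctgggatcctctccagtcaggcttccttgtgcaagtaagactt
Il6: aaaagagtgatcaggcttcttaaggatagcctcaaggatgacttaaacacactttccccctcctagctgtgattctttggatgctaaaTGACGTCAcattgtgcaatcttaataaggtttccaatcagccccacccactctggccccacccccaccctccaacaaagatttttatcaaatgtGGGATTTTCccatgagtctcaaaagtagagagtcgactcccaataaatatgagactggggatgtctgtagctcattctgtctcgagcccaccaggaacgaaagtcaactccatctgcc
Cxcl1: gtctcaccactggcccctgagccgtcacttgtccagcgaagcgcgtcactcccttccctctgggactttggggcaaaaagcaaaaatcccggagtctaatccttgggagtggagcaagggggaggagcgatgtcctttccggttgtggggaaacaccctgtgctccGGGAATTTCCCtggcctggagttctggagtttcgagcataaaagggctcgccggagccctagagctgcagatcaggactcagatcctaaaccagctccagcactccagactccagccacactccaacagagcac
The Il6 and Cxcl1 windows each held the kappa B letters, which 4.05% of the 33469 promoter windows in the table held. In Il6 the match began 68 bases upstream of the start. In Cxcl1 it began 84 bases upstream, and a match on the other strand overlapped it at 82 bases, so that 1 stretch of capitals covers both. The Il6 window also held the cAMP response element, 162 bases upstream, found in 1.83% of windows. The Il1b window held the TATAAA letters, 60 bases upstream, found in 14.2% of windows. These are matches of letters, and binding at them was not measured.

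The counts were low for 4 of the 5 genes. The libraries held between 34546567 and 47181784 counts in all, and levels are given as CPM, the count as a share of the library brought to a common size, after adjustment by TMM factors. A library in which a gene has 0 counts still allows 3 counts, which corresponds to between 0.0595 and 0.0889 CPM over the 6 libraries. Intervals of counts above 0 are exact 95% Poisson intervals, and like this floor they cover counting error only, not differences between rats. In whole tendon tissue, fewer cells of a type and less RNA per cell cannot be told apart.

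None of the 4 members with enough counts for a test passed it between the groups. With edgeR's quasi-likelihood test, 0 of 4 had an unadjusted p-value under 0.05, the threshold that the study's methods use, against 2.61% of the 15122 genes tested. At this threshold 1.20% of genes were lower in treated rats. After Benjamini-Hochberg adjustment, 0 of 4 members had a p-value under 0.05, against 0.00661% of genes, which is 1 gene. DESeq2 also gave 0 members at the unadjusted threshold, against 3.21% of the 17992 genes it tested. The log2 fold changes of the 4 members were all below 0, where 49.0% of all genes tested had a value below 0. Their median was -0.72, beside 0.0067 for all genes tested. These directions come from the same libraries, so they are not independent, and genes of like abundance were not compared. Celecoxib + lactoferrin replicate 2 had the lowest level in 3 of the 4 members. Without it the log2 fold changes of Il1b, Ccl2 and Cxcl1 were -0.15, -0.33 and -0.30. The directions are a description of the means, and the following values show how far each gene's groups overlapped.

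**Figure D1:**
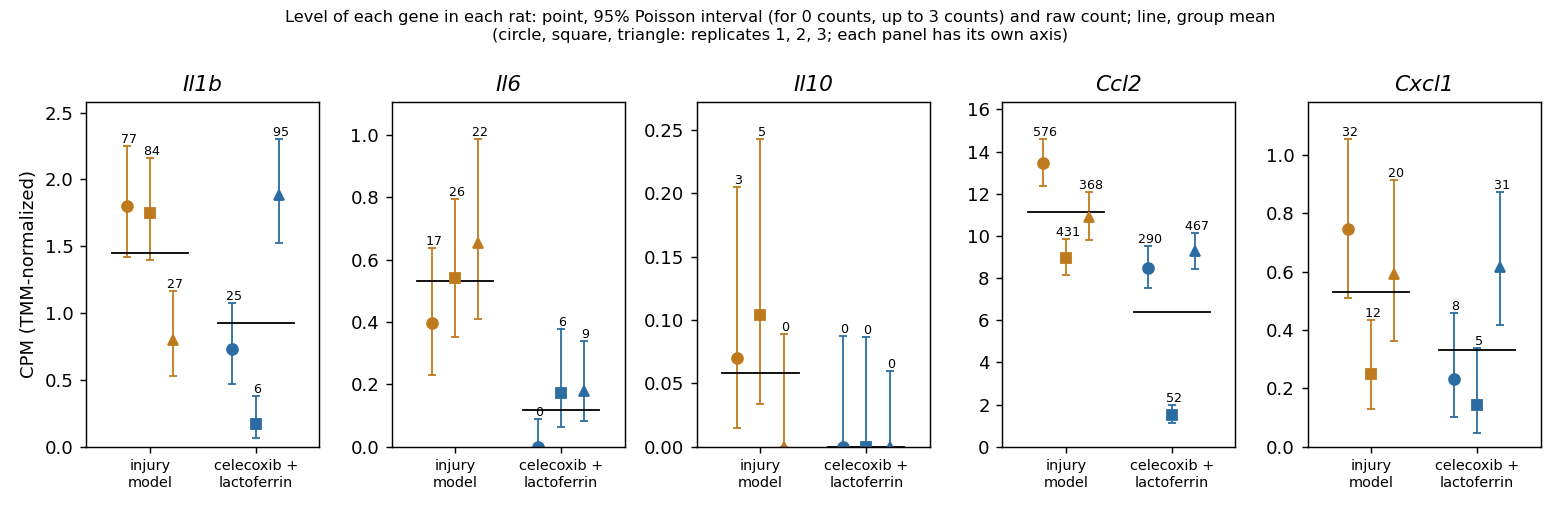
Level of each of the 5 genes in every rat, in CPM (TMM-normalized) on an axis of its own, with the 95% Poisson interval as a bar (for 0 counts, up to the floor of 3 counts), the raw count above it and the group mean as a line. The groups are apart in Il6, where the treated rats have 0, 6 and 9 counts and the injury model rats 17, 26 and 22, and celecoxib + lactoferrin replicate 2 has the lowest level of Il1b, Ccl2 and Cxcl1.

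Il6 was the only tested member whose groups did not overlap. Injury model replicates 1, 2 and 3 had 17, 26 and 22 counts, which are levels of 0.397, 0.541 and 0.652 CPM. Celecoxib + lactoferrin replicates 1, 2 and 3 had 0, 6 and 9 counts, which are 0, 0.174 and 0.179 CPM. Every treated rat thus lay below every injury model rat, as was the case for 3.69% of all genes tested. The mean of the injury model rats was 0.530 ± 0.128 CPM and that of the treated rats 0.118 ± 0.102 CPM (SD, n = 3 each). The log2 fold change was -2.11 (standard error 0.99, 95% interval -4.41 to 0.18), which is 4.33-fold lower in treated rats. It did not pass the test (unadjusted p = 0.0665, adjusted p = 0.998, edgeR), and 561 genes had a smaller p-value. The two-sided exact permutation test of mean log2 CPM gave p = 0.1, the smallest that 3 rats against 3 allow. Of all genes tested, whatever their abundance, 0.370% had a lower log2 fold change. A rank among genes with counts as low as those of Il6 was not taken.

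Counting error alone was large for Il6. The interval around the 17 counts of injury model replicate 1 ran from 0.232 to 0.636 CPM, and that around the 9 counts of celecoxib + lactoferrin replicate 3 from 0.0817 to 0.339 CPM, so these neighbours overlapped. The rat with 0 counts, celecoxib + lactoferrin replicate 1, moved the estimate more than any other rat when left out: without it the log2 fold change was -1.57. With limma voom the value was -2.62 and its unadjusted p-value was 0.0433 (adjusted p = 0.992), the only setting in which Il6 passed the unadjusted threshold, which 2.48% of all genes tested passed with voom. Over the 13 alternatives that could test Il6, its unadjusted p-value ran from 0.0433 to 0.167 (edgeR, DESeq2 and limma) and its adjusted p-value from 0.822 to 1.

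Il10 was near the limit of detection. Injury model replicates 1, 2 and 3 had 3, 5 and 0 counts, and all 3 treated rats had 0 counts. The highest level, that of injury model replicate 2, was 0.104 CPM, with an interval from 0.0338 to 0.243 CPM. In the treated rats the floor of 3 counts corresponds to 0.0595 to 0.0876 CPM. Summed over the rats, the groups had 8 and 0 counts. The filter on low counts removed Il10 from the fit, and no fold change is given because the mean count of either group lay at or under the floor of 3 counts per library. Without the filter, edgeR gave an unadjusted p-value of 0.11 (adjusted p = 0.998), and DESeq2 gave an unadjusted p-value of 0.355. The exact permutation test gave p = 0.4.

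Ccl2, the monocyte chemokine, was the only member with at least 52 counts in every library. Its level was 13.5, 8.97 and 10.9 CPM in injury model replicates 1, 2 and 3, from 576, 431 and 368 counts. It was 8.47, 1.51 and 9.27 CPM in celecoxib + lactoferrin replicates 1, 2 and 3, from 290, 52 and 467 counts. Replicates 1 and 2 of the treated group lay below all injury model rats, and replicate 3 lay between injury model replicates 2 and 3. The means were 11.1 ± 2.26 CPM (SD, n = 3) and 6.41 ± 4.27 CPM (SD, n = 3). The log2 fold change was -0.79 (standard error 0.61, 95% interval -2.24 to 0.65; unadjusted p = 0.235, adjusted p = 0.998, edgeR), and the exact permutation test gave p = 0.2. The interval holds both a 4.71-fold lower level and no difference.

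The Ccl2 value rested largely on 1 treated rat. Celecoxib + lactoferrin replicate 2 had an interval from 1.13 to 1.98 CPM, well below the interval of replicate 1 (7.52 to 9.50 CPM), and the level in replicate 1 was 5.62 times that in replicate 2. Without replicate 2 the log2 fold change of Ccl2 was -0.33, and with any other rat left out it lay between -1.16 and -0.63. The library of replicate 2 held 34546738 counts with a TMM factor of 0.999, close to injury model replicate 3 with 34546567 counts and a factor of 0.977. The Ccl2 count of those 2 libraries was 52 and 368. The cause of this difference was not tested.

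Cxcl1, the neutrophil chemokine, overlapped between the groups. Injury model replicates 1, 2 and 3 had 32, 12 and 20 counts, or 0.748, 0.250 and 0.593 CPM. Celecoxib + lactoferrin replicates 1, 2 and 3 had 8, 5 and 31 counts, or 0.234, 0.145 and 0.615 CPM. Replicate 3 of the treated group was thus the second highest of the 6 rats, and the other two treated rats were the lowest. The means were 0.530 ± 0.255 CPM and 0.331 ± 0.250 CPM (SD, n = 3 each). The log2 fold change was -0.65 (standard error 0.78, 95% interval -2.46 to 1.16; unadjusted p = 0.432, adjusted p = 0.998, edgeR), and the exact permutation test gave p = 0.3. Leaving out celecoxib + lactoferrin replicate 2 gave -0.30, leaving out injury model replicate 1 gave -0.32, and leaving out celecoxib + lactoferrin replicate 3 gave -1.47.

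Il1b overlapped between the groups. Injury model replicates 1, 2 and 3 had 77, 84 and 27 counts, or 1.80, 1.75 and 0.800 CPM. Celecoxib + lactoferrin replicates 1, 2 and 3 had 25, 6 and 95 counts, or 0.730, 0.174 and 1.89 CPM. The highest and the lowest of the 6 rats were both treated, and their levels differed 10.8-fold, while the injury model rats spanned 2.25-fold. The 3 libraries with the largest totals were celecoxib + lactoferrin replicate 3 and injury model replicates 1 and 2. They had 1.75 to 1.89 CPM of Il1b, and the 3 others 0.174 to 0.800 CPM, although CPM is scaled to the library size. Levels of Il6, Ccl2 and Cxcl1 overlapped between the deeper and the shallower libraries. How many of all genes split by depth as Il1b did was not counted, and the split was not tested. The interval of replicate 2 (0.0638 to 0.378 CPM) overlapped neither that of replicate 1 (0.473 to 1.08 CPM) nor that of replicate 3 (1.53 to 2.30 CPM). The mean of the injury model rats was 1.45 ± 0.563 CPM and that of the treated rats 0.930 ± 0.873 CPM (SD, n = 3 each). The log2 fold change was -0.63 (standard error 0.79, 95% interval -2.45 to 1.19; unadjusted p = 0.448, adjusted p = 0.998, edgeR), and the exact permutation test gave p = 0.4. It was -0.15 without celecoxib + lactoferrin replicate 2 and -1.68 without replicate 3 of that group, with unadjusted p-values of 0.819 and 0.0752. With a term for the deeper against the shallower libraries, the log2 fold change of Il1b was -0.34 (unadjusted p = 0.599, adjusted p = 1, edgeR). The same term left Il6 at -2.09, Ccl2 at -0.70 and Cxcl1 at -0.61. Each depth class holds only 1 rat of one group, so no comparison within a class is given.

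**Figure D2:**
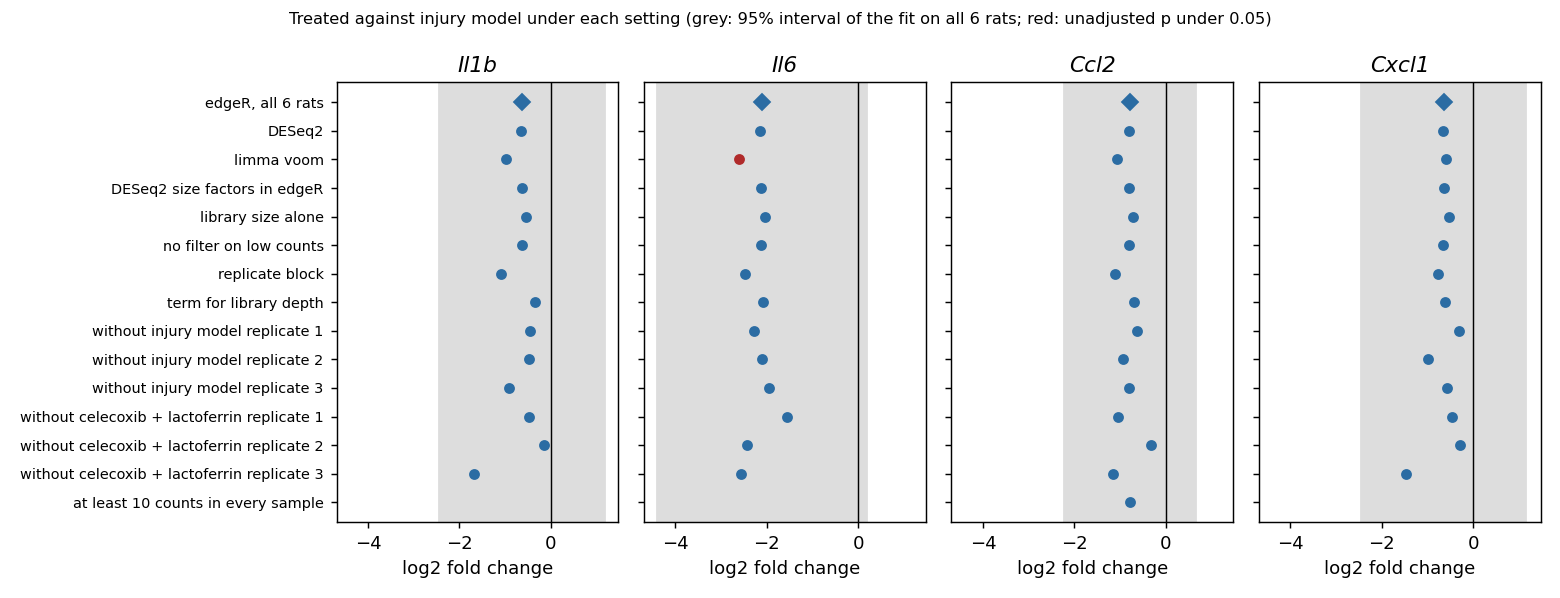
Log2 fold change, treated over injury model, of the 4 tested genes under each test, normalization, filter and left-out rat, with the 95% interval of the edgeR fit on all 6 rats in grey. All points lie below 0, all 4 intervals include 0, and the only point with an unadjusted p-value under 0.05 is Il6 with limma voom.

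The spread between rats was large beside the group means. The SD of the CPM was larger in treated than in injury model rats for Il1b and Ccl2, and it was smaller for Il6 and Cxcl1. The coefficient of variation, which a lower mean and a lower count both raise, of the CPM was 93.9% in treated and 38.8% in injury model rats for Il1b, and 86.6% against 24.1% for Il6. It was 66.5% against 20.3% for Ccl2 and 75.4% against 48.1% for Cxcl1. With 3 rats in a group these spreads are themselves imprecise, and their difference was not tested. In the edgeR fit, the biological coefficient of variation was 68.7% for Il1b, 61.4% for Il6, 53.8% for Ccl2 and 61.6% for Cxcl1, beside a median of 29.1% over all genes tested. Between 85.9% and 92.3% of genes had a smaller one. For genes of like abundance the fitted trend was 59.0% at Il1b, 66.5% at Il6, 38.6% at Ccl2 and 65.6% at Cxcl1, so only Ccl2 and Il1b lay above the trend.

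**Figure D3:**
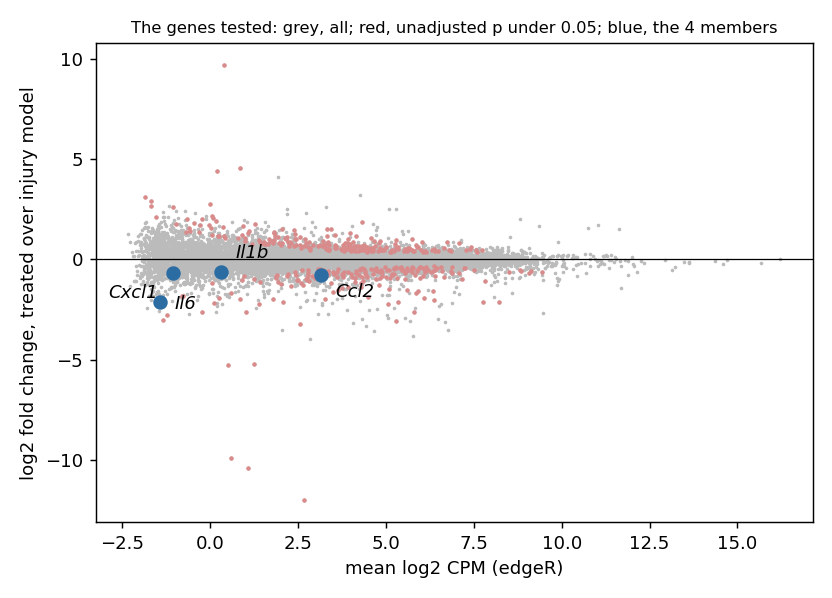
Mean log2 CPM (horizontal) and log2 fold change, treated over injury model (vertical), of the 15122 genes tested, with genes of an unadjusted p-value under 0.05 in red and the 4 tested members in blue. The members lie below 0, with Il6 at -2.11 among the low-count genes and Ccl2 at -0.79 to its right.

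The order of the rats, by Spearman's rho, was most alike between both chemokines, while Pearson's r was highest between Il1b and Ccl2. Over the 6 rats, log2 CPM of Ccl2 and Cxcl1 had Pearson's r = 0.769 (exact permutation p = 0.00417, adjusted p = 0.025 over 6 pairs of members) and Spearman's rho = 0.943 (exact permutation p = 0.0167, adjusted p = 0.10). Without the 2 rats farthest from the median of Ccl2, injury model replicate 1 and celecoxib + lactoferrin replicate 2, r was 0.75. Their removal narrows the range of Ccl2, so this value cannot show what the relation rested on. Of all genes tested, 12.1% had a higher r with Ccl2 than Cxcl1 had. Il1b and Ccl2 had r = 0.880 (exact permutation p = 0.0542, adjusted p = 0.163; rho = 0.714, exact p = 0.136, adjusted p = 0.262), and 3.61% of genes had a higher r with Il1b. Without celecoxib + lactoferrin replicates 1 and 2, r was -0.136. These rats were left out for their distance from the median of Il1b, which narrows its range, so the fall in r cannot show what the relation rested on. Il1b and Cxcl1 had r = 0.697 (exact permutation p = 0.0972, adjusted p = 0.194; rho = 0.886, exact p = 0.0333, adjusted p = 0.10) and -0.145 without the same rats, and 13.8% of genes had a higher r with Il1b. For Il6 with Il1b, Ccl2 and Cxcl1, r was 0.298, 0.224 and 0.428 (exact permutation p = 0.549, 0.601 and 0.403, each adjusted p = 0.601), and rho was 0.371, 0.657 and 0.486 (exact permutation p = 0.497, 0.175 and 0.356, adjusted p = 0.497, 0.262 and 0.427). The r of Il6 with Il1b was -0.649 without celecoxib + lactoferrin replicates 1 and 2, the rats farthest from the median of Il1b. Without injury model replicate 3 and celecoxib + lactoferrin replicate 1, farthest from the median of Il6, it was 0.59 with Ccl2 and 0.132 with Cxcl1. A higher r than in these pairs was found for 35.4% of genes with Il1b, and for 31.0% and 18.6% with Il6. All pairs come from the same 6 libraries and share their scaling. The permutations exchanged rats across both groups, and each of these genes had a lower mean in treated rats. A difference between the groups that both genes of a pair share therefore enters r and its p-value.

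Receptors, other cytokines and chemokines of these pathways, and markers of macrophages, neutrophils, tendon cells and muscle were listed by symbol, 97 in all. None of them could be paired with an ID of the table, so their values were not analysed here and the cell content of the tendons was not checked against markers. Whether leukocyte numbers moved with Il1b, Ccl2 or Cxcl1 from rat to rat was not tested.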

How the data were processed

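Messenger RNA was measured in tendons of 3 injury model rats and 3 celecoxib + lactoferrin rats. Per the methods, the authors sequenced on an Illumina platform, removed reads of low quality and used HISAT2 with the rat assembly Rnor_6.0, whereas the submitters' processing notes name GRCh38.p13, a human build, although the IDs are those of rat genes. They deposited raw counts per Ensembl gene ID. The counting tool, its strand setting and its handling of multi-mapping reads are not given in the sources used here. Columns were mapped to samples by the group key of the study's heat map and the replicate number. Labels do not say that replicates are separate animals. The study's methods state that 3 rats of each group were sacrificed on day 14. Each library is called a rat here on that ground, and p-values measure the spread between these samples. The symbols of the 5 genes came with the gene list, as 0 of 22250 IDs matched the reference table, so no similar genes and no list genes were named.

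Counts were fitted with edgeR 4.0.16 in R 4.3.3 (TMM, filterByExpr, robust quasi-likelihood test, Benjamini-Hochberg over all genes tested), with DESeq2 1.42.0, limma 3.58.1 voom, other scalings and filters, a replicate block, a depth term and each rat left out as alternatives. For Il10 the fold of an unfiltered fit was planned, but none is given because the mean counts of both groups lay at or under the floor. Standard errors were derived from edgeR's F statistic. Log2 CPM used a prior count of 2. Exact permutation tests were two-sided; p-values for correlations were added to a comparison planned as a description. The script was tested on simulated data. Members, lists and alternatives were chosen with earlier results of these data known. Named were the 5 genes of the list, by rule.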

Additional observations from a re-analysis of the deposited data

How the results depend on the processing

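All alternatives kept the log2 fold changes of Il1b, Il6, Ccl2 and Cxcl1 below 0, in 13, 13, 14 and 13 alternatives. The alternatives refit the same libraries, so an unchanged sign is not a separate check of a difference. How many of all genes kept their sign was not counted. Requiring 10 counts in every library left only Ccl2 to test. Limma voom gave 1 member with an unadjusted p-value under 0.05, Il6 at -2.62, against 0 in edgeR, where 375 of all genes passed with voom; the cause was not tested.

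Over the whole table, the unadjusted threshold was passed by 395 genes in edgeR, 578 in DESeq2 and 223 with a term for library depth. Leaving out 1 rat gave from 226 (injury model replicate 1) to 890 (celecoxib + lactoferrin replicate 3). An adjusted p-value under 0.05 was reached by 1 gene in edgeR, 26 in DESeq2, 3 without a filter, 0 with limma voom, 0 with at least 10 counts in every sample, and 1 to 9 with 1 rat left out (9 without injury model replicate 2). No cause was tested.

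The groups share replicate numbers. Between same-numbered libraries, the r of deviations across genes was 0.0048, 0.057 and -0.267. Between libraries of different numbers it ran from -0.305 to 0.301. With so few rats in a group, these values cannot decide whether the numbers pair the rats. With a replicate block, 326 genes had an unadjusted p-value under 0.05 and 0 an adjusted one, and the members were at -1.08 (Il1b), -2.47 (Il6), -1.12 (Ccl2) and -0.78 (Cxcl1), none past the threshold. Il10 had at most 5 counts in a library, which limits what can be read from it, and the cause was not tested.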

Other observations

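Ratios of counts within a library do not depend on its scaling. Per 100 counts of Ccl2, the monocyte chemokine, Il1b had 13.4, 19.5 and 7.34 counts in injury model replicates 1, 2 and 3, and 8.62, 11.5 and 20.3 in celecoxib + lactoferrin replicates 1, 2 and 3. Cxcl1 had 5.56, 2.78 and 5.43 counts per 100 of Ccl2 in the injury model rats and 2.76, 9.62 and 6.64 in the treated rats. For both genes the groups overlapped. Il6 had 2.95, 6.03 and 5.98 counts per 100 of Ccl2 in the injury model rats and 0, 11.5 and 1.93 in the treated rats, so that treated replicates 1 and 3 lay below the injury model rats and replicate 2 above them. In replicate 2, the rat with the lowest Ccl2, the counts of Il1b and Il6 were both 6 and that of Cxcl1 was 5. These ratios were chosen after the values had been seen, and were not tested.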
